A study of Mus musculus with 3 samples.

Results

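Collagens are the fibrous proteins that give the aortic wall its tensile strength. Each collagen molecule is built from 3 polypeptide chains, which are copies of the same chain or products of different genes. The chains were taken as every gene whose symbol reads Col, a number, the letter a and a number, which gave 44 of the 32285 genes measured. They were described across smooth muscle cells (SMCs), fibroblasts, endothelial cells (ECs), Schwann cells and immune cells of the ascending aorta. The rule reads gene symbols only, although it was set with earlier results of these data known.

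Cells of the ascending aorta were dissociated from male C57BL/6J mice at P45 (45 days after birth) and loaded as 3 droplet libraries. The WT library pooled 3 wild-type mice. The mgR library pooled 3 Fbn1 mgR/mgR mice, which carry a hypomorphic allele of the fibrillin-1 gene in every cell and are used as a model of Marfan syndrome. The mgR-LOS library pooled 4 mice of the same genotype that drank losartan, a blocker of the angiotensin II type 1 receptor, at 0.6 g/L from P16. For mgR the labels give no drinking water or vehicle. The mgR library is shared by both comparisons between conditions. With 1 pooled library per condition no test between conditions was possible, and intervals between conditions cover counting error only. Levels are unique molecular identifiers (UMIs) of a gene relative to all UMIs of the cells summed, in CPM, where 10000 CPM are 1% of the UMIs. The kit reads the 3' end of each transcript, so that a level does not scale with the length of the gene.

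The triple helix forms because glycine recurs along a chain at regular steps, in Gly-X-Y triplets. Fibrillar chains (types I, II, III, V, XI, XXIV and XXVII) carry long unbroken runs of triplets and pack into fibrils. Type IV chains have interrupted runs and assemble into the sheet-like basement membrane that surrounds each SMC and underlies the endothelium. Type VI forms beaded filaments next to cells, and FACIT chains such as Col12a1 and Col14a1 sit on the surface of fibrils. The multiplexins Col15a1 and Col18a1 carry glycosaminoglycan side chains and lie in or beside basement membranes, the latter being the source of endostatin. The short chain Col8a1 forms hexagonal lattices in vessel walls and in the cornea. In the adventitia fibroblasts lay down most type I and type III collagen, while SMCs of the media make fibrillar and basement membrane chains between the elastic lamellae.

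The difference in repeat can be read in the coding sequence. The following stretches, from GENCODE transcripts on GRCm38, show the first 54 bases of the longest unbroken run of triplets of a fibrillar, a basement membrane, a short and a FACIT chain, with the glycine codons in capitals.
Col1a1, codons 168 to 185: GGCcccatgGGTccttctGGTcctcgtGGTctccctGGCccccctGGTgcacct
Col4a1, codons 43 to 60: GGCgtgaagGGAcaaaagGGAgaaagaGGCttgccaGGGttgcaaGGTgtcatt
Col8a1, codons 355 to 372: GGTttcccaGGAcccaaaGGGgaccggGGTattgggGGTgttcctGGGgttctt
Col14a1, codons 1517 to 1534: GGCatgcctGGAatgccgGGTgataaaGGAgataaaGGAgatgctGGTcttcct
The stretches look alike, and the chains differed in how long the repeat ran. The unbroken run held 338 triplets in Col1a1, 40 in Col4a1, 60 in Col8a1 and 32 in Col14a1. In Col4a1 436 triplets lay in 22 separate runs of at least 6, against 2 such runs in Col1a1. Interrupted runs were not particular to type IV, with 18 in Col7a1, 18 in Col16a1 and 8 in Col8a1.

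Type IV genes lie in pairs that start head to head on opposite strands. The windows below run from 250 bases before to 50 bases after the RefSeq start (GRCm38.p6) and are shown for the pair members whose levels the results turn on, and for Col8a1. In Col4a1 (chr8:11312777-11313076, minus strand) the capitals mark the stretch from the start of Col4a2 to the start of Col4a1. In Col4a4 (chr1:82586800-82587099, minus strand) they mark the stretch between the starts of Col4a4 and Col4a3. In Col8a1 (chr16:57754688-57754987, minus strand) they mark matches of the GC box GGGCGG on either strand.
Col4a1: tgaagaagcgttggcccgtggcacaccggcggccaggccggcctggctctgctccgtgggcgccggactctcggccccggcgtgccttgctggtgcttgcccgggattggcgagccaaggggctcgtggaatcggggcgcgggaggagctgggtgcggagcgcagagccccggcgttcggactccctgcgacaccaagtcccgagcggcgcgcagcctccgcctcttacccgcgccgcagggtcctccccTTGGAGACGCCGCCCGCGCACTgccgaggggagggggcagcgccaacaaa
Col4a4: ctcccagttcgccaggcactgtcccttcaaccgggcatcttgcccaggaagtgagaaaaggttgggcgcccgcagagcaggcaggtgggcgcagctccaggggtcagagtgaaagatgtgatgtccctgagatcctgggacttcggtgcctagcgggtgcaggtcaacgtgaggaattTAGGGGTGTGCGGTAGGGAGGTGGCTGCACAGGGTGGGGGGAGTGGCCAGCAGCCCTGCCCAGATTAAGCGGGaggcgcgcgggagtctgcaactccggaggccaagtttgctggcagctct
Col8a1: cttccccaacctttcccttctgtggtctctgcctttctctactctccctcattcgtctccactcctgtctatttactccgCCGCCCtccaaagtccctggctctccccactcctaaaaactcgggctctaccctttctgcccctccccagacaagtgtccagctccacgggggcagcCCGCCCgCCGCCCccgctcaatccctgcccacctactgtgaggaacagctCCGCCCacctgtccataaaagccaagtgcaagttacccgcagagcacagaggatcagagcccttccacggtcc
By the gene annotation Col4a1 (chromosome 8 from 11198423 to 11312826) and Col4a2 (chromosome 8 from 11312805 to 11449287) overlap by 22 bases, and their starts lie 21 bases apart. The starts of Col4a3 (chromosome 1 from 82586921 to 82722059) and Col4a4 (chromosome 1 from 82448423 to 82586849) lie 72 bases apart, and those of Col4a5 and Col4a6 on the X chromosome 1309 bases apart. Col8a1 runs on chromosome 16 from 57624258 to 57754737. Of the 44 chains 35 had a window in the RefSeq table, 38 windows in all. A GC box match lay in 23 of these 38 windows and in 35.7% of all 32851 windows, a CCAAT match in 13 and 37.4%, a TATAAA match in 5 and 13.6%, and a match of the AP-1 motif TGANTCA in 1 and 7.81%. The Col8a1 window held 4 GC box matches. These are matches of letters on either strand and no evidence that a factor binds.

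After limits on genes (600 to 5000) and on mitochondrial UMIs (10% at most) there were 5361 barcodes in WT, 8076 in mgR and 12721 in mgR-LOS, with a median of 13636, 12410.5 and 8334 UMIs. Pairs of libraries shared 22 to 46 barcode sequences. A barcode entered a class (gate) when its score over a panel of marker genes passed a minimum and its scores over the other panels stayed under a maximum, and no collagen gene is in a panel. The SMC gate held 3606, 3056 and 7789 barcodes in WT, mgR and mgR-LOS, and the fibroblast gate 1281, 2198 and 2858. The EC gate held 108, 211 and 171 barcodes, the Schwann gate 10, 23 and 29, and the immune gate 118, 1537 and 697. The gates together held 95.6%, 87.0% and 90.7% of barcodes, and 238, 1051 and 1177 entered none. Of the latter 89, 386 and 634 passed the minimum of more than a single panel. Levels and ratios therefore cover gated barcodes only, and the part of this unequal loss in them was not tested. Fbn1, the targeted gene, was at 251, 78.5 and 67.3 CPM in SMC-gated and at 799.8, 360.3 and 291.4 CPM in fibroblast-gated cells of WT, mgR and mgR-LOS, lower in both mutant libraries.

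The label of the Schwann gate did not hold for all of its barcodes. Among its 10 leading genes were the pigment cell genes Dct (5091 CPM), Tyrp1, Pmel and Mlana beside Sox10. Barcodes with at least 20 UMIs of these 4 pigment genes numbered 2 of 10 in WT, 5 of 23 in mgR and 4 of 29 in mgR-LOS, and none of them carried a UMI of Mbp, Gfra3 or Kcna1. Of the other 8 barcodes in WT, 7 were called doublets. Counts of called chains and the main differences of this gate are therefore given with and without the pigment barcodes, a split made after the values had been seen, and levels are those of the whole gate. Over all chains the pigment barcodes stood at 1096, 559 and 1638 CPM in WT, mgR and mgR-LOS, and the other barcodes of the gate at 7027, 10617 and 8487 CPM.

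The chains together made up 2.76%, 3.28% and 3.53% of all UMIs in fibroblast-gated cells of WT, mgR and mgR-LOS, and 1.13%, 1.38% and 0.995% in SMC-gated cells. As levels these were 27623, 32819 and 35254 CPM in fibroblast-gated cells against 11266, 13815 and 9948 CPM in SMC-gated cells. The fibroblast level was 2.45, 2.38 and 3.54 times that of SMC-gated cells. Schwann-gated cells followed with 4987, 7532 and 7545 CPM, then EC-gated cells with 1871, 2457 and 2220 CPM and immune-gated cells with 324, 473 and 499 CPM. This order of the gates was the same in the 3 libraries and the intervals of neighbours did not overlap. From WT to mgR the summed level was higher in every gate, and from mgR to mgR-LOS it was lower in SMC-gated and higher in fibroblast-gated cells. The fibroblast gate itself was not equal across libraries, since its 8 markers summed to 28044 CPM in WT, 18450 in mgR and 26738 in mgR-LOS, and the part of this difference in the collagen values was not tested.

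**Figure D1:**
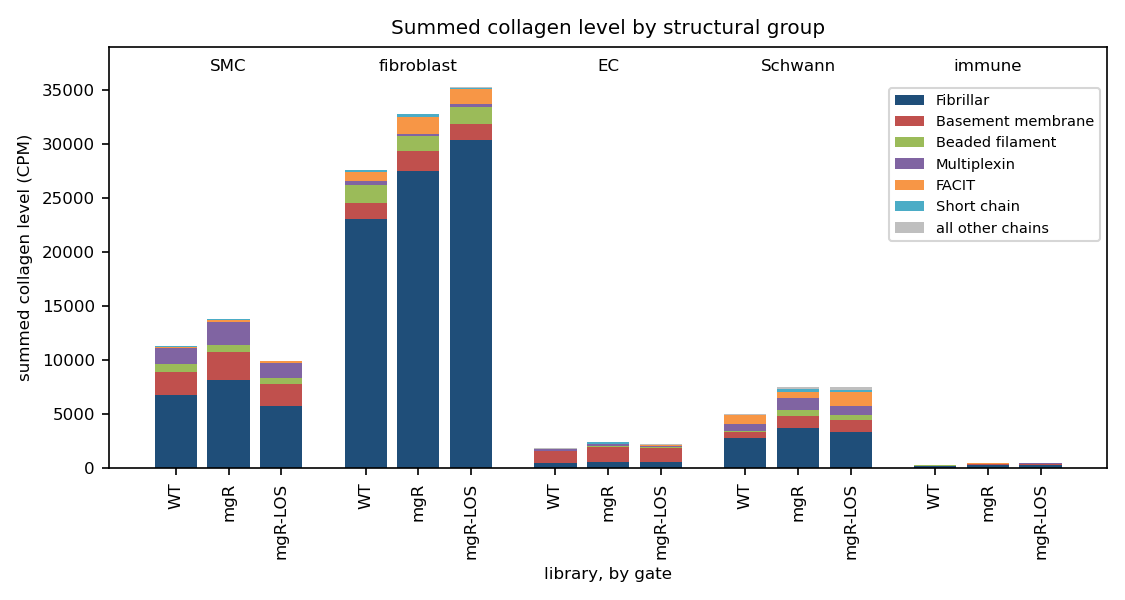
Stacked bars give the summed level of the collagen chains in CPM for each library (WT, mgR, mgR-LOS) within each gate, with colours for the structural groups. Fibroblast-gated bars reach 27623 to 35254 CPM and are mostly fibrillar, SMC-gated bars reach 9948 to 13815 CPM with visible basement membrane and multiplexin parts, and immune-gated bars stay at or under 499 CPM.

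The mix of chains differed between SMC-gated, fibroblast-gated and EC-gated cells in each library. Fibrillar chains gave 83.4%, 83.8% and 86.3% of collagen UMIs in fibroblast-gated cells of WT, mgR and mgR-LOS, 60.5%, 58.9% and 57.7% in SMC-gated cells, and 26.1%, 24.1% and 27.1% in EC-gated cells. Basement membrane chains gave 57.8%, 55.7% and 56.3% in EC-gated cells, 18.7%, 19.3% and 20.4% in SMC-gated cells, and 5.32%, 5.67% and 4.0% in fibroblast-gated cells. The multiplexins made up 12.7%, 15.9% and 14.0% in SMC-gated cells and 1.54%, 0.624% and 0.843% in fibroblast-gated cells. In immune-gated cells the fibrillar share was 59%, 60.1% and 61.5%, close to that of SMC-gated cells, and in Schwann-gated cells it was 55.2%, 49.8% and 44.9%.

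Of the 44 chains 23 reached 100 CPM in some gate of a library, and 7 (Col6a4, Col10a1, Col13a1, Col17a1, Col24a1, Col25a1 and Col26a1) had fewer than 100 UMIs over all gated cells. Fibroblast-gated cells were the highest gate in all 3 libraries for 19 chains and SMC-gated cells for 7. Schwann-gated cells were the highest for 3 (Col5a3, Col16a1 and Col27a1) and EC-gated cells for 1, Col23a1. A highest gate needed more than 3 UMIs, so some rest on few. Col27a1 had 4, 6 and 7 UMIs in the Schwann gate and passed 100 CPM only there in WT. Col24a1 had 4, 16 and 4 UMIs in the fibroblast gate. Immune-gated cells were the highest for none. For Col8a1, Col10a1, Col12a1 and Col22a1 the highest gate differed between libraries or rested on 3 UMIs or fewer in some of them. For the remaining 10 chains the gate that ranked highest held 3 UMIs or fewer in at least 1 library, as for Col28a1 in the Schwann gate of WT, so they were given no highest gate.

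**Figure D2:**
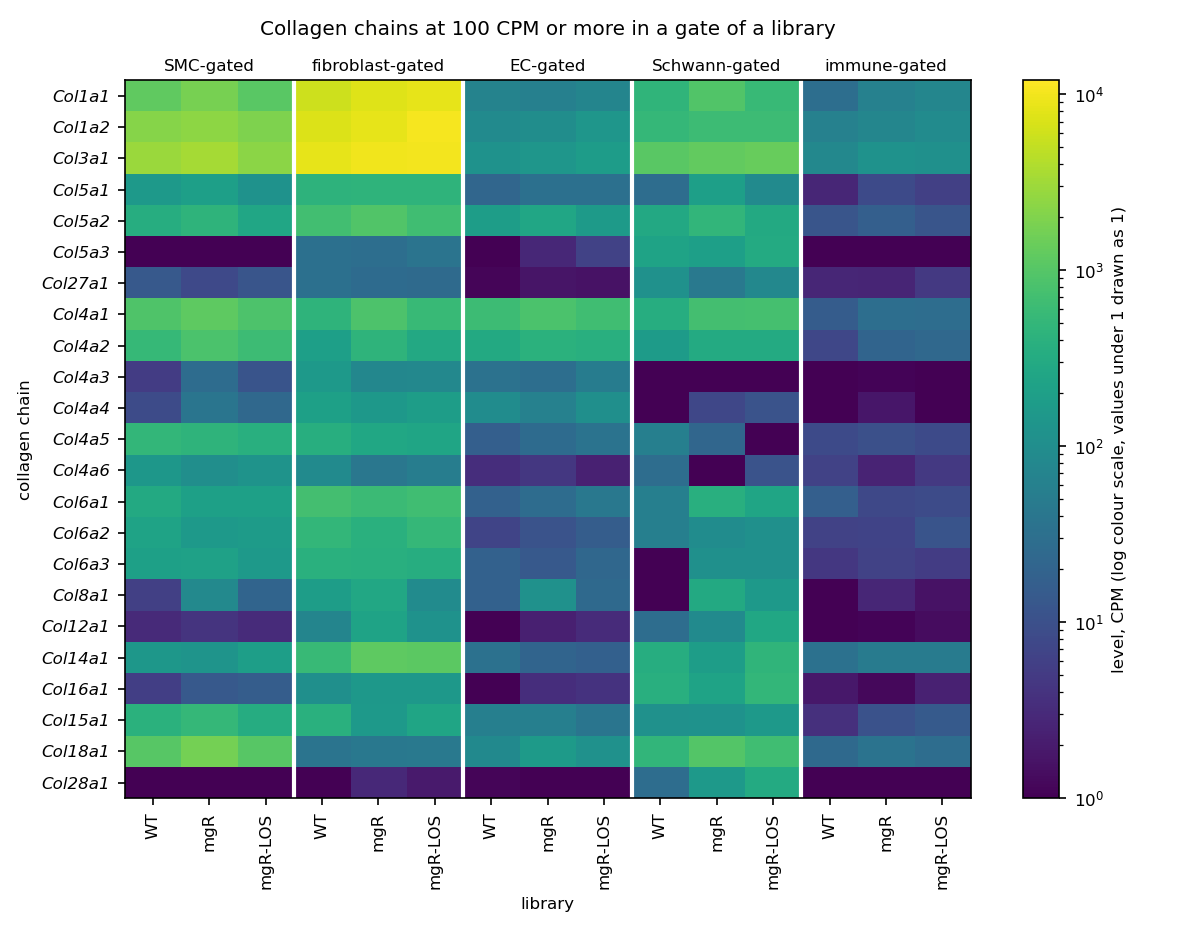
Colour gives the level in CPM, on a log scale, of the 23 chains that reached 100 CPM (rows) in each library within each gate (columns). Col1a1, Col1a2 and Col3a1 are brightest in fibroblast-gated cells, Col18a1 in SMC-gated cells, and Col28a1 and Col5a3 stand out in Schwann-gated cells.

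Whether the gates differ was tested on UMIs summed per library and gate, with the library as a block, by edgeR's quasi-likelihood test with Benjamini-Hochberg adjustment over 13435 genes. The 3 libraries are the replicates of this comparison, and they come from different conditions. A filter on low counts kept 33 of the 44 chains, and since a chain could pass it through a single gate, the counts of chains that follow are a description. Such chains were, among others, Col19a1 (SMC gate), Col13a1 (EC gate), and Col20a1 and Col28a1 (Schwann gate). No p-value is printed for these, and their differences are a description too. In SMC-gated against fibroblast-gated cells 7 chains were higher and 25 lower, where 23.6% of all genes tested were higher and 26.9% lower. With no filter 7 chains were higher and 31 lower of 44. The chain that did not pass the test was Col20a1, with a log2 difference of -0.19 (SE 0.38).

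Among the chains higher in SMC-gated cells, Col18a1 stood at 1032, 1685 and 1060 CPM in SMC-gated cells of WT, mgR and mgR-LOS and at 36.8, 42.9 and 44.5 CPM in fibroblast-gated cells. Its log2 difference was 5.09 (SE 0.18, adjusted p = 7.83e-12, edgeR's quasi-likelihood test with Benjamini-Hochberg adjustment). After each barcode was thinned to 1000 UMIs, a Col18a1 UMI was seen in 62.0%, 75.5% and 61.2% of SMC-gated barcodes, in 3.28%, 3.96% and 4.13% of fibroblast-gated ones and in 5.08%, 3.65% and 2.87% of immune-gated ones, which should lack the chain. The median depth before thinning was 14405.5, 15244.5 and 8525 UMIs in SMC-gated and 8504, 7870 and 6597 UMIs in immune-gated barcodes. In fibroblast-gated cells the thinned share overlapped this background within counting error, while the unthinned level was above the immune-gated one beyond counting intervals in mgR (42.9 against 36.3 CPM) and mgR-LOS (44.5 against 28.6 CPM). The top 10% of SMC-gated barcodes held 21.9% of the Col18a1 UMIs in WT, so that expression was spread over the gate. Col15a1, the other multiplexin, was at 397, 514 and 333 CPM in SMC-gated and at 389, 162 and 253 CPM in fibroblast-gated cells. Its log2 difference of 0.86 (SE 0.28) had an adjusted p of 0.0168 in edgeR's test and of 0.309 without the mgR library, 0.0649 without the mgR-LOS library, 0.0501 with 200 to 7500 genes, 0.0584 with the highest panel score and 0.123 by DESeq2, so the call did not hold in these, and its levels in WT, 397 (391 to 402) and 389 (379 to 399) CPM, overlapped in their intervals. Col19a1, a FACIT chain of low level, was at 3.86, 6.51 and 6.43 CPM in SMC-gated cells, with 0, 3 and 1 UMIs in the fibroblast gate. Its log2 difference was 6.64 (SE 0.50), a size poorly known on so few UMIs.

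Type IV chains split by pair. Col4a1 and Col4a2, which form the common basement membrane trimer, were at 902, 1188 and 871 CPM and at 546, 855 and 630 CPM in SMC-gated cells. In fibroblast-gated cells Col4a1 was at 455, 881 and 555 CPM and Col4a2 at 202, 443 and 289 CPM. The differences were 0.89 (SE 0.18) and 1.37 (SE 0.18) on the log2 scale, with adjusted p of 5.28e-04 and 1.17e-05 in edgeR's quasi-likelihood test. Col4a5 and Col4a6, which pair in the basement membrane of smooth muscle, were also higher in SMC-gated cells, with log2 differences of 0.81 and 1.29. Col4a5 was at 503, 446 and 370 CPM and Col4a6 at 145, 105 and 123 CPM there, against 359, 266 and 246 CPM and 88.6, 41.1 and 53.4 CPM in fibroblast-gated cells. The Col4a5 call was lost when the mgR library was left out (adjusted p = 0.050, edgeR) and with the highest panel score (0.0735). Col4a3 and Col4a4, known from the kidney glomerulus, went the other way. Col4a3 was at 155, 78.2 and 81.7 CPM in fibroblast-gated and at 5.32, 28.1 and 11.3 CPM in SMC-gated cells, a log2 difference of -2.75 (SE 0.47, adjusted p = 0.000247, edgeR). Col4a4 was at 209, 152 and 184 CPM in fibroblast-gated and at 8.63, 38.9 and 23.6 CPM in SMC-gated cells, a difference of -2.85 (SE 0.37, adjusted p = 8.42e-06, edgeR). The levels of Col4a3 and Col4a4 in the 2 gates did not overlap in any library, but in mgR they were nearer to each other than in WT.

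The fibrillar chains tested were higher in fibroblast-gated cells, and they include the 3 most abundant chains of both gates. Col1a1 was at 5805, 7576 and 8440 CPM there and at 1196, 1738 and 1070 CPM in SMC-gated cells, a log2 difference of -2.24 (SE 0.24, adjusted p = 1.08e-06, edgeR). Its partner Col1a2 was at 7337, 8519 and 10698 CPM against 2155, 2412 and 1942 CPM, and Col3a1, the chain of type III, at 8609, 9885 and 10082 CPM against 2947, 3323 and 2338 CPM. These 3 chains were also the most abundant of SMC-gated cells in every library, ahead of Col18a1 and Col4a1. In mgR-LOS, however, Col1a1 (74522 UMIs, 1070 CPM) and Col18a1 (73863 UMIs, 1060 CPM) were nearly level. The 8 fibroblast markers summed to 574, 417 and 562 CPM in the SMC gate and to 28044, 18450 and 26738 CPM in the fibroblast gate. Their part in the SMC-gated levels of Col1a1, Col1a2 and Col3a1 was not tested. Col5a1 and Col5a2, which start and limit fibrils, were at 429, 443 and 443 CPM and at 711, 921 and 668 CPM in fibroblast-gated cells, above 154, 203 and 122 CPM and 349, 446 and 257 CPM in SMC-gated cells. Col5a3 was nearly absent from SMC-gated cells, at 0.234 to 0.468 CPM, against 31.6, 30.1 and 36.7 CPM in fibroblast-gated cells. Col11a1, a chain of cartilage fibrils, was at 45.5, 51.3 and 15.9 CPM in fibroblast-gated cells with 2, 3 and 5 UMIs in the whole SMC gate. Its partner Col11a2 was at 41.0, 13.4 and 8.65 CPM in fibroblast-gated cells. Col27a1 was at 31.7, 26.6 and 26.2 CPM in fibroblast-gated and at 13.6, 7.92 and 12.1 CPM in SMC-gated cells.

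The type VI chains Col6a1, Col6a2 and Col6a3, which form 1 trimer, were all lower in SMC-gated than in fibroblast-gated cells, with log2 differences of -1.30, -1.11 and -0.73. The Col6a3 call was lost without the mgR-LOS library (adjusted p = 0.109, edgeR) and with the highest panel score (0.0548). Col6a1 was at 738, 593 and 678 CPM there and at 298, 211 and 205 CPM in SMC-gated cells. Col6a2 was at 498, 386 and 523 CPM against 235, 155 and 173 CPM, and Col6a3 at 389, 370 and 346 CPM against 208, 218 and 155 CPM. Col6a6, an alternative to Col6a3 in the trimer, was at 34.2, 16.3 and 41.6 CPM in fibroblast-gated and at 6.84, 1.83 and 6.12 CPM in SMC-gated cells. The FACIT chains Col12a1, Col14a1 and Col16a1 were lower in SMC-gated cells too. Col14a1 was at 560, 1153 and 1132 CPM in fibroblast-gated cells and at 143, 128 and 195 CPM in SMC-gated cells. Col12a1 was at 72.2, 234 and 118 CPM in fibroblast-gated and at 3.12, 4.15 and 3.20 CPM in SMC-gated cells, a log2 difference of -5.01 (SE 0.30, adjusted p = 1.84e-09, edgeR's quasi-likelihood test). Col16a1 was at 109, 148 and 149 CPM against 5.63, 13.7 and 15.9 CPM. The type VIII chains were both higher in fibroblast-gated cells. Col8a1 was at 187, 276 and 94.4 CPM and Col8a2 at 36.0, 17.4 and 12.5 CPM, against 5.83, 82.6 and 20.8 CPM and 0.156 to 0.298 CPM in SMC-gated cells. The Col9a1, Col9a2 and Col9a3 chains of type IX, which decorate cartilage fibrils, reached at most 24.6, 3.25 and 9.49 CPM in fibroblast-gated cells.

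In EC-gated cells 2 of the 33 chains were higher than the mean of SMC-gated and fibroblast-gated cells and 22 were lower, where 19.8% of all genes tested were higher and 23.5% lower. With no filter 3 chains were higher and 25 lower of 44. This mean, also used for Schwann-gated cells, was taken over log levels. All log2 differences between gates used edgeR's TMM scaling of the sums and the CPM did not. A difference can therefore depart from the CPM printed beside it. A chain called higher or lower than it can therefore lie between SMC-gated and fibroblast-gated cells. Col23a1, a transmembrane chain that can be shed, was at 51.9, 68.9 and 71.1 CPM in EC-gated cells of WT, mgR and mgR-LOS, while fibroblast-gated cells stood at 9.63, 5.93 and 6.37 CPM and SMC-gated cells at 1.07, 0.255 and 1.19 CPM. Its log2 difference was 4.43 (SE 0.27, adjusted p = 3.08e-09, edgeR). Col13a1, also a transmembrane chain, was called higher too but on only 3, 4 and 5 UMIs in the EC gate, so its level of 3.46, 2.30 and 3.99 CPM is poorly known. Col4a1 and Col4a2 led the endothelial chains with 627, 839 and 671 CPM and 302, 407 and 380 CPM. After TMM scaling both were lower than the mean of SMC-gated and fibroblast-gated cells, with log2 differences of -0.47 and -0.64. In CPM both lay between SMC-gated and fibroblast-gated cells in WT and mgR-LOS and below both in mgR. The Col4a1 call (adjusted p = 0.0255, edgeR) was lost in 10 of the alternatives. The Col4a2 call (adjusted p = 0.0049, edgeR) was lost without the library block (0.0709), without the mgR library (0.103), with the highest panel score (0.0934) and under the stricter gate (0.0766). Col18a1 stood at 86.5, 168 and 114 CPM and Col5a2 at 183, 258 and 168 CPM. For Col18a1 these levels were above those of fibroblast-gated cells (36.8, 42.9 and 44.5 CPM). The 8 fibroblast markers summed to 1652, 1041 and 2335 CPM in the EC gate, and their part in the endothelial values of Col1a1, Col1a2 and Col3a1 was not tested.

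The endothelial chains were not spread evenly over the EC gate. Barcodes were split by the panel with the most UMIs among Lyve1, Mmrn1, Prox1 and Flt4, markers of lymphatic endothelium, Rgcc, Cd36 and Fabp4, markers of capillaries, and Vwf, Eln and Bmp4. Col4a1 was at 1503, 1597 and 2008 CPM in the Rgcc panel of WT, mgR and mgR-LOS, at 693, 908 and 576 CPM in the Lyve1 panel and at 266, 375 and 271 CPM in the Vwf panel. Col15a1 stood at 227, 232 and 188 CPM in the Rgcc panel and at most at 12.7 CPM in the others. Col4a4 was the reverse, with 189, 151 and 223 CPM in the Vwf panel and at most 15.1 CPM in the others. Col23a1 was seen in the Lyve1 panel (126, 95.1 and 68.6 CPM) and the Vwf panel (44.8, 90.2 and 98.8 CPM), with 0, 0 and 1 UMIs in the Rgcc panel. The panels held 24 to 89 barcodes each in a library, so these levels are a description.

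In Schwann-gated cells 8 of the 33 chains were higher than the mean of SMC-gated and fibroblast-gated cells and 13 lower, where 5.41% of all genes tested were higher and 10% lower. With the pigment barcodes left out 9 were higher and 11 lower. With these barcodes kept and no filter 10 chains were higher and 17 lower of 44. Col28a1, a chain known from peripheral nerve, had 1, 22 and 28 UMIs in the gate (29.0, 164 and 315 CPM), none of them in a pigment barcode, and 0.209, 2.96 and 1.94 CPM in fibroblast-gated cells. Its log2 difference was 9.33 (SE 0.58) and 9.74 without the pigment barcodes. The SMC gate held 1, 1 and 0 UMIs of Col28a1, so the size of this difference is poorly known. Col5a3 had 8, 27 and 28 UMIs (232, 201 and 315 CPM), again none in a pigment barcode, with a log2 difference of 5.54 (SE 0.33, adjusted p = 1.7e-08, edgeR's quasi-likelihood test). Col16a1 was at 377, 231 and 507 CPM, a difference of 2.51 (SE 0.29). Col18a1 was at 493, 961 and 676 CPM, a difference of 1.07 (SE 0.16) from the mean of log levels. These levels lay below those of SMC-gated cells (1032, 1685 and 1060 CPM) and above those of fibroblast-gated cells (36.8, 42.9 and 44.5 CPM). The Col18a1 call was lost with the highest panel score (difference 0.58, adjusted p = 0.186, edgeR) and with called doublets removed (0.89, adjusted p = 0.063). Without the pigment barcodes the differences of Col5a3, Col16a1 and Col18a1 were 5.97, 2.80 and 1.5. The calls of Col20a1 and Col27a1 were lost whichever library was left out. Col12a1, called higher with a difference of 2.03, had 1, 12 and 24 UMIs in the gate. Its call was lost without the mgR-LOS library (difference 0.84, adjusted p = 0.499, edgeR). Col9a3 rested on 2, 4 and 2 UMIs in the gate and Col20a1 on 2, 1 and 1. The 8 SMC markers summed to 2030, 1736 and 2399 CPM in this gate, and their part in its levels of Col18a1, Col4a1 and Col3a1 was not tested.

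Immune-gated cells had 80.1, 119 and 113 CPM of Col3a1, 30.0, 63.1 and 74.5 CPM of Col1a1 and 24.6, 36.3 and 28.6 CPM of Col18a1 in WT, mgR and mgR-LOS. The fibroblast panel summed to 189, 198 and 314 CPM and the SMC panel to 890, 1211 and 1244 CPM in the same gate, with none of the 8 fibroblast markers at 0. At 1000 UMIs per barcode 4.24%, 6.12% and 7.75% of immune-gated barcodes carried a Col1a1 UMI, and these were taken as background. The FACIT chain Col14a1 stood at 33.7, 49.9 and 50.1 CPM in this gate. FACIT chains gave 10.96%, 11.09% and 10.86% of its collagen UMIs. In SMC-gated cells they gave at most 2.24%, in fibroblast-gated cells at most 4.77% and in EC-gated cells at most 1.91%. In Schwann-gated cells they gave 17.4%, 7.22% and 16.9%, so a high FACIT share was not particular to immune-gated cells. The source of Col14a1 in immune-gated cells was not tested.

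Pairs of chains of the same collagen type or structural group were correlated from cell to cell to unequal degrees. Across fibroblast-gated barcodes the Pearson correlation of log levels of Col1a1 and Col1a2 was 0.92 in each library, over 1281, 2198 and 2858 barcodes. The head-to-head pairs Col4a1 and Col4a2 had 0.55, 0.71 and 0.50, Col4a3 and Col4a4 had 0.58, 0.59 and 0.44, and Col4a5 and Col4a6 had 0.53, 0.51 and 0.39. Col8a1 and Col8a2 had 0.22, 0.21 and 0.10, and Col15a1 and Col18a1 at most 0.06. In SMC-gated barcodes Col1a1 and Col1a2 stood at 0.61, 0.72 and 0.51. Col15a1 and Col18a1 stood at 0.21, 0.38 and 0.21 there, above their values in fibroblast-gated barcodes, where Col18a1 is low. Barcodes of a library share depth and free RNA, and sparse counts lower a correlation, so these values describe the libraries only. UMIs of Col1a2 were 1.26, 1.12 and 1.27 times those of Col1a1 in fibroblast-gated cells and 1.80, 1.39 and 1.82 times in SMC-gated cells, lower in mgR than in the other libraries in both gates.

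The comparison of mgR with WT asks how the chains stand in the fibrillin-1 deficient aorta. A chain was counted as past the fold when its ratio of CPM was at least 1.5 or at most 1/1.5, among genes with at least 50 UMIs over both libraries. In SMC-gated cells 7 of 26 chains were past the fold as higher and 4 as lower, where 8.03% of all genes were higher and 8.06% lower. The median log2 ratio of the chains was 0.29, against -0.03 for all 12548 genes. In fibroblast-gated cells 6 of 33 chains were higher and 8 lower, where 8.14% of all genes were higher and 7.81% lower, and the median was -0.01 for the chains and for all genes.

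**Figure D3:**
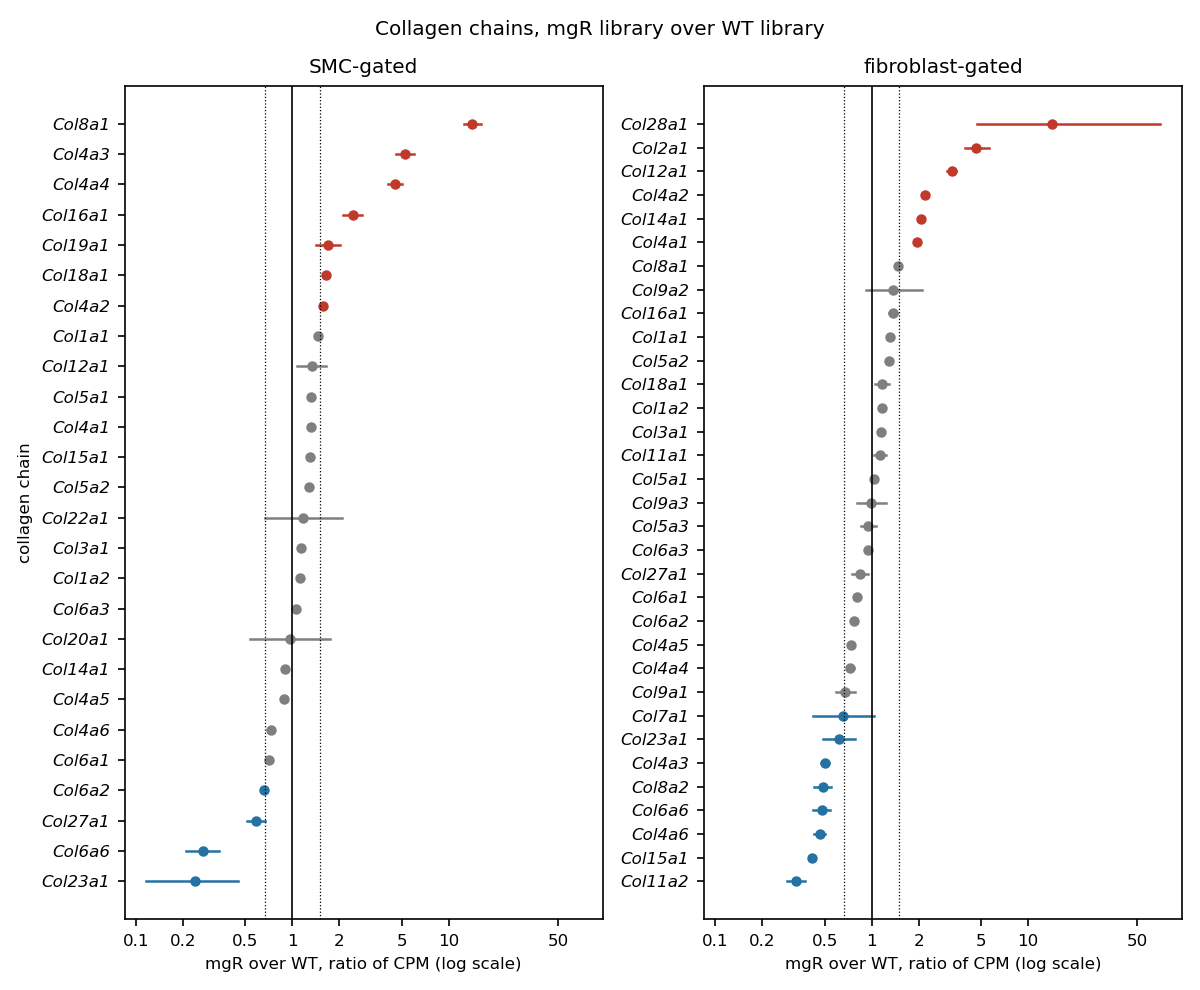
Points give the ratio of CPM in mgR over WT for each chain with at least 50 UMIs over both libraries, SMC-gated at left and fibroblast-gated at right, on a log scale with exact 95% counting intervals as bars and dotted lines at the 1.5-fold limits. Col8a1 (14.2), Col4a3 (5.28) and Col4a4 (4.51) stand apart in SMC-gated cells, and Col12a1 (3.24) and Col14a1 (2.06) are among those past the fold in fibroblast-gated cells.

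The largest ratio in SMC-gated cells was that of Col8a1, whose levels were 5.83 CPM in WT (5.18 to 6.52), 82.6 in mgR (80.0 to 85.2) and 20.8 in mgR-LOS (19.8 to 21.9). In mgR it was thus 14.2 times WT (12.6 to 16). At 1000 UMIs per barcode a Col8a1 UMI was seen in 0.445%, 6.48% and 1.89% of SMC-gated barcodes, against 0%, 0.326% and 0.143% of immune-gated ones (4.77%, 35.9% and 10.1% of SMC-gated barcodes without thinning). In WT 0 of 118 immune-gated barcodes carried one, for which the exact 95% binomial interval reaches 3.08%. The top 10% of SMC-gated barcodes held 64.7% of the Col8a1 UMIs in mgR, and the highest barcode had 35. The difference was seen within marker panels of the SMC gate, described further on. Col8a2 had no more than 15 UMIs in the SMC gate of any library. Outside the SMC gate Col8a1 was at 18.5, 117 and 24.8 CPM in EC-gated cells and at 187, 276 and 94.4 CPM in fibroblast-gated cells, highest in mgR in all 3 gates. Schwann-gated cells ranked highest for Col8a1 in both mutant libraries, on few UMIs. They held 0, 41 and 14 UMIs in WT, mgR and mgR-LOS (0, 305 and 158 CPM).

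Col4a3 and Col4a4 followed. Col4a3 went from 5.32 CPM (4.71 to 5.99) to 28.1 CPM (26.6 to 29.6), a ratio of 5.28 (4.63 to 6.03), while Col4a4 went from 8.63 (7.85 to 9.47) to 38.9 (37.2 to 40.8), a ratio of 4.51 (4.07 to 5.02). In fibroblast-gated cells the same chains were lower in mgR, at 0.50 (0.48 to 0.54) and 0.73 (0.70 to 0.77) of WT, so that the ratios of the 2 gates lay on opposite sides of 1. That difference between the gates was not tested, since each rests on 1 library per condition. The partner Col4a5 was at 0.89 of WT in SMC-gated and 0.74 in fibroblast-gated cells, and Col4a6 at 0.73 and 0.46. Col4a1 and Col4a2 were higher in mgR in both gates, by 1.32 (1.30 to 1.33) and 1.57 (1.54 to 1.59) in SMC-gated cells and by 1.94 (1.88 to 1.99) and 2.20 (2.11 to 2.29) in fibroblast-gated cells.

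Col18a1 was the most abundant chain past the fold in SMC-gated cells, with a ratio of 1.63 (1.61 to 1.65) from 1032 CPM (1024 to 1041) to 1685 CPM (1674 to 1697). At most 5% mitochondrial UMIs gave 1.47 for Col18a1 and 1.46 for Col4a2, under the fold. That limit kept only 565 of 3606 SMC-gated barcodes in WT and 922 of 3056 in mgR. Col16a1 had a ratio of 2.43 (2.12 to 2.81) and Col19a1 of 1.69 (1.41 to 2.03). Lower in mgR were Col23a1 at 0.24 (0.12 to 0.45), from 55 to 12 UMIs, Col6a6 at 0.27 (0.21 to 0.34), Col27a1 at 0.58 (0.51 to 0.66) and Col6a2 at 0.66 (0.64 to 0.68). The more abundant fibrillar chains were not past the fold, with 1.45 for Col1a1, 1.12 for Col1a2, 1.13 for Col3a1, 1.32 for Col5a1 and 1.28 for Col5a2. The immune panel in the SMC gate was at 14.9, 49.4 and 58.4 CPM in WT, mgR and mgR-LOS, and the fibroblast panel at 574, 417 and 562 CPM. The part of other cells in the SMC-gated values of Col8a1, Col4a3 and Col18a1 was not tested.

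**Figure D4:**
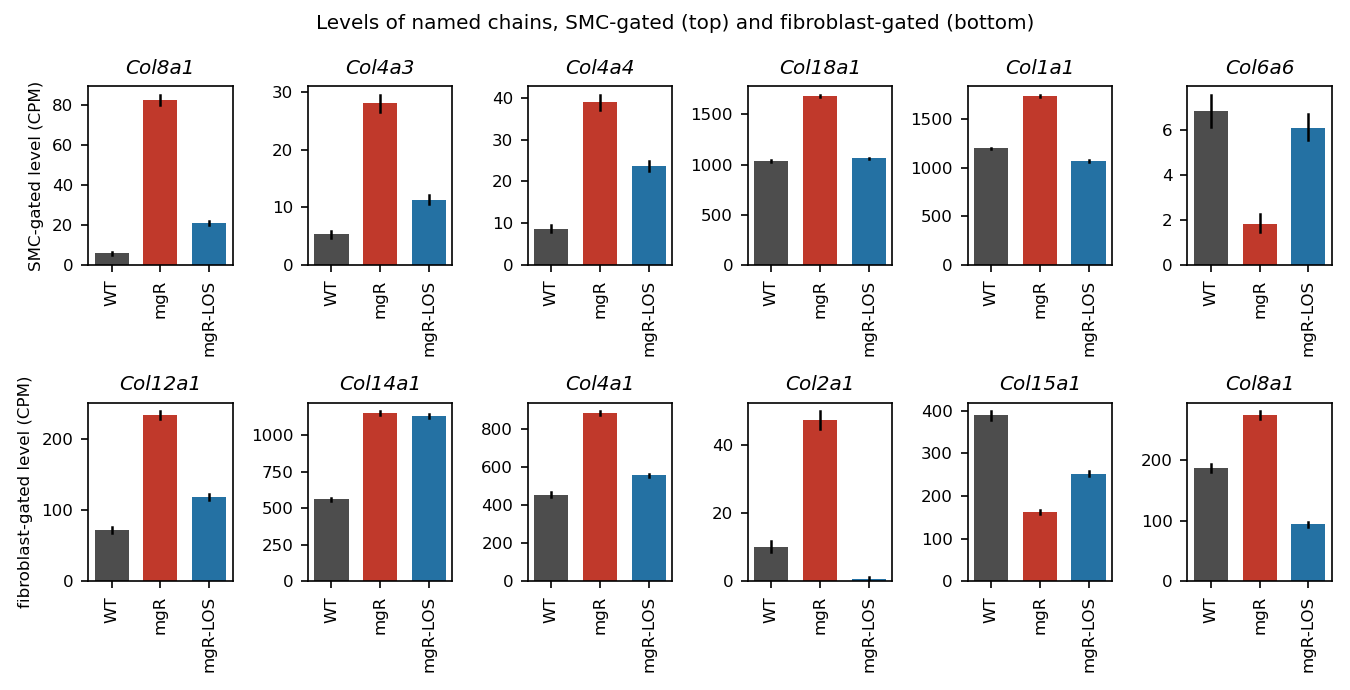
Bars give the level in CPM in WT, mgR and mgR-LOS of 6 chains in SMC-gated cells (top) and 6 in fibroblast-gated cells (bottom), with exact 95% counting intervals, 1 pooled library per bar and an axis of its own for each chain. Col8a1 in SMC-gated cells goes from 5.83 to 82.6 and back to 20.8 CPM, while Col14a1 in fibroblast-gated cells stays at 1132 CPM in mgR-LOS.

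In fibroblast-gated cells Col12a1 went from 72.2 CPM (67.9 to 76.7) to 234 CPM (228 to 240), a ratio of 3.24 (3.03 to 3.46), and Col14a1 at 560 CPM (548 to 573) and 1153 CPM (1140 to 1165), a ratio of 2.06 (2.01 to 2.11). Both are FACIT chains that bind fibrils. The chains of those fibrils moved less, with 1.31 for Col1a1, 1.16 for Col1a2, 1.15 for Col3a1 and 1.29 for Col5a2. Col15a1 was at 389 CPM (379 to 399) and 162 CPM (157 to 167), a ratio of 0.42 (0.40 to 0.43), against 1.30 in SMC-gated cells, where the chain was not past the fold. Also lower were Col11a2 at 0.33, Col4a6 at 0.46, Col6a6 at 0.48, Col8a2 at 0.48, Col23a1 at 0.62 and Col7a1, the anchoring fibril chain, at 0.65 (0.42 to 1.03). Col28a1 had 3 UMIs in WT and 82 in mgR, a ratio of 14.2 (4.68 to 70.1).

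The cartilage chain Col2a1 rested on few barcodes. Its level was 10.1, 47.3 and 0.844 CPM in fibroblast-gated cells of WT, mgR and mgR-LOS, a ratio of 4.67 (3.94 to 5.59) for mgR over WT. In mgR 1.00% of the 2198 barcodes carried a UMI, and a single barcode held 649 of the 1308 UMIs. Under a stricter gate the ratio was 1.14, below the fold.

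In EC-gated cells 3 of 16 chains were higher in mgR than in WT and 2 lower, where 10.5% of all genes were higher and 4.56% lower. Col8a1 had 16 UMIs in WT and 203 in mgR, a ratio of 6.31 (3.79 to 11.25). Most of these lay in the Vwf panel, at 32.3 CPM in WT, 281 in mgR and 42.6 in mgR-LOS, with 1 UMI in the Lyve1 panel of mgR. Col18a1 had a ratio of 1.94 (1.5 to 2.54), which was 1.27 as a mean over barcodes, and in the Vwf panel it stood at 57.2, 209 and 54.5 CPM. The other chains past the fold were Col4a5 at 1.56 (0.86 to 3.00), Col4a4 at 0.65 (0.48 to 0.87) and Col14a1 at 0.62 (0.37 to 1.04), and the intervals of Col4a5 and Col14a1 included 1.

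The comparison of mgR-LOS with mgR asks how the chains stand after losartan. Its values share the mgR library with the comparison above, so a value particular to that library enters both. The mgR-LOS library also differed from mgR in Cell Ranger version (6.0.1 against 5.0.1), median UMIs (8334 against 12410.5) and mice pooled (4 against 3). Losartan cannot be told apart from these differences or from others between the libraries. In SMC-gated cells 5 of 28 chains were past the fold as higher in mgR-LOS and 9 as lower, where 9.78% of all genes were higher and 4.87% lower, and the median log2 ratio was -0.34 for the chains and 0.07 for all genes. In fibroblast-gated cells 4 of 36 chains were higher and 11 lower, where 6.25% of all genes were higher and 5.1% lower, with a median of -0.03 for the chains and 0.01 for all genes. The summed level of all chains was lower in SMC-gated cells (9948 against 13815 CPM) and higher in fibroblast-gated cells (35254 against 32819 CPM).

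In SMC-gated cells Col8a1 was at 0.25 (0.24 to 0.27) of mgR, Col4a3 at 0.40 (0.37 to 0.44) and Col4a4 at 0.61 (0.57 to 0.65). Col18a1 was at 0.63 (0.62 to 0.64) and Col15a1 at 0.65 (0.64 to 0.66). Fibrillar chains were lower too, Col5a2 at 0.58, Col5a1 at 0.60 and Col1a1 at 0.62 of mgR, while Col3a1 at 0.70 and Col1a2 at 0.81 were not past the fold. With these ratios Col18a1, at 1060 CPM, lay near its WT level of 1032 CPM, and Col1a1, Col5a1 and Col5a2 lay below theirs, whereas Col8a1 at 20.8 CPM and Col4a4 at 23.6 CPM stayed above WT levels of 5.83 and 8.63 CPM. Col10a1, the hypertrophic cartilage chain, went from 37 to 20 UMIs (0.36, 0.20 to 0.64). Higher in mgR-LOS were Col23a1 at 4.67 (2.53 to 9.39), Col6a6 at 3.34 (2.64 to 4.26), Col22a1 at 2.07 (1.34 to 3.30), Col14a1 at 1.52 (1.48 to 1.57) and Col27a1 at 1.52 (1.35 to 1.73). The last 2 fell under the fold in 5 alternatives each. The fibroblast panel in the SMC gate was higher in mgR-LOS (562 against 417 CPM), and its part in the values of Col14a1 and Col6a6, both higher in fibroblast-gated cells, was not tested.

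In fibroblast-gated cells Col8a1 was at 0.34 (0.33 to 0.36) of mgR, at 94.4 CPM below its WT level of 187 CPM, and Col12a1 at 0.51 (0.48 to 0.53). Col4a1 and Col4a2 were at 0.63 and 0.65. Col14a1, at 0.98 (0.97 to 1.00) of mgR, stayed near its mgR level of 1153 CPM and above its WT level of 560 CPM in both mutant libraries. Col2a1 was at 0.02 of mgR, Col11a1 at 0.31 and Col11a2 at 0.64. Of the type IX chains Col9a2 was at 0.32, Col9a1 at 0.66 and Col9a3, not past the fold, at 0.81. In mgR the highest barcode held 270 of the 1419 UMIs of Col11a1, 98 of the 372 of Col11a2 and 117 of the 460 of Col9a1. The ratios of these cartilage chains thus rest in part on few barcodes, like that of Col2a1. Col22a1 was at 0.45 and Col28a1 at 0.66. Higher were Col6a5 at 3.50 (2.05 to 6.24), Col6a6 at 2.55 (2.28 to 2.85), Col15a1 at 1.56 (1.5 to 1.62) and Col13a1 at 1.54 (0.89 to 2.70). Col6a6 and Col15a1 had both been lower in mgR than in WT. Col1a1 and Col1a2 were at 1.11 and 1.26 of mgR. In EC-gated cells Col8a1 was at 0.21 (0.14 to 0.31) of mgR.

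Within gates the chains were also read in marker panels, each barcode being given to the panel with the most UMIs. In SMC-gated cells the panel of Sost, Acan and Susd5 held 59.6%, 73.5% and 57.0% of barcodes in WT, mgR and mgR-LOS, Tnnt2 and Tcap 19.5%, 12.9% and 21.1%, Rbp4 and Wif1 10.8%, 0.589% and 0.873%, and Vcam1, Spp1 and Lgals3 0.832%, 6.15% and 1.78%. Col8a1 was at 2.80 CPM in WT and 59.7 CPM in mgR in the Sost panel, a ratio of 21.3 (17.2 to 26.8), at 14.7 and 144 CPM in the Tnnt2 panel (9.81), and at 17.6 and 183 CPM in the Vcam1 panel (10.4). The level was thus higher in mgR inside each of these panels and of the 3 highest in the Vcam1 panel, which was itself larger in mgR. In the panel of Rgs5, Abcc9 and Kcnj8, markers of pericytes, it was at 0 of 101 barcodes in WT and at 190.1 CPM in mgR, from 50 UMIs in 27 barcodes. Col4a3 had ratios of 4.74 in the Sost panel, 5.01 in the Tnnt2 panel and 5.38 in the Vcam1 panel, and Col4a4 of 4.15, 5.22 and 4.15. Col18a1 had 1.56, 1.59 and 1.4, and Col1a1 1.38, 1.71 and 1.62. In mgR-LOS Col8a1 was at 0.21, 0.27 and 0.26 of mgR in the same 3 panels.

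**Figure D5:**
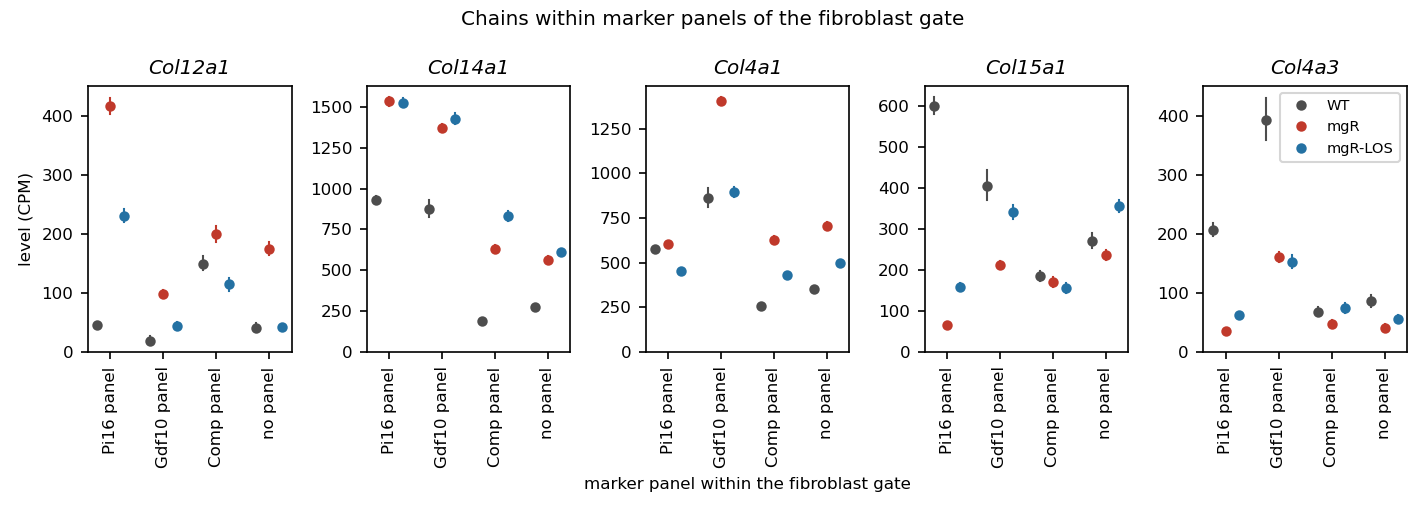
Points give the level in CPM of 5 chains in WT, mgR and mgR-LOS within marker panels of the fibroblast gate, with exact 95% counting intervals and 1 pooled library per point. Col12a1 in the Pi16 panel goes from 45 CPM in WT to 416 CPM in mgR, Col15a1 there from 599.8 to 66.3 CPM, and both differ less in the Comp panel.

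In fibroblast-gated cells the panel of Pi16, Dpp4 and Sema3c, markers of adventitial progenitor-like fibroblasts, held 45.9%, 33.5% and 32.8% of barcodes in WT, mgR and mgR-LOS. The panel of Gdf10 and Hsd11b1 held 9.21%, 32.3% and 22%, and that of Comp, Chad and Fmod, genes of cartilage and tendon matrix, 22.8%, 13.7% and 14.8%. Col12a1 was at 45 and 416 CPM in the Pi16 panel of WT and mgR, a ratio of 9.26 (8.16 to 10.5), at 5.46 (3.55 to 8.86) in the Gdf10 panel and at 1.34 (1.2 to 1.48) in the Comp panel. Col15a1 ran the other way, with 599.8 and 66.3 CPM in the Pi16 panel (0.11, 0.10 to 0.12), 0.52 in the Gdf10 panel and 0.92 (0.83 to 1.02) in the Comp panel. Col4a3 had ratios of 0.17, 0.41 and 0.69 in the same order and Col4a4 of 0.33, 0.54 and 0.92. For Col4a1 the order was turned, with 1.05 in the Pi16 panel, 1.63 in the Gdf10 panel and 2.43 in the Comp panel. Col14a1 was higher in each, with 1.65, 1.57 and 3.36. Col1a1 was at 0.78 in the Pi16, 1.16 in the Gdf10 and 1.34 in the Comp panel, so its ratio of 1.31 over the whole gate was not shared by the Pi16 panel. Col1a1 levels in the Gdf10 panel, which held more of the gate in mgR, were 9635 CPM in WT and 11175 CPM in mgR, above those of the Pi16 panel (6674 and 5181 CPM). The part of the mix of panels in the whole-gate ratio of Col1a1 was not tested. In mgR-LOS Col15a1 in the Pi16 panel was at 159 CPM, 2.40 times mgR, and Col12a1 at 231 CPM, 0.55 times mgR. Col8a1 was lower in mgR-LOS in all 3 panels, at 0.34, 0.15 and 0.31 of mgR.

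The machinery that modifies, cuts and binds the chains was counted as 3 lists. Of 18 tested genes of modification and folding, such as the prolyl hydroxylases, the lysyl hydroxylases and the chaperone Serpinh1, 11 were lower in SMC-gated than in fibroblast-gated cells by edgeR's quasi-likelihood test and the others did not pass, with a median log2 difference of -0.46 against 0.00 over all genes. Of 12 tested genes of propeptide cleavage and cross-linking 11 were lower, with a median of -2.01. Pcolce, which enhances procollagen cleavage, differed by -4.30 (SE 0.26), and Lox, a lysyl oxidase that cross-links collagen and elastin, was the gene that did not pass, with 0.01 (SE 0.17). Of 10 receptors and uptake genes 3 were higher in SMC-gated cells, the integrin chains Itgb1 and Itga1 and the receptor Ddr1, and 5 were lower. Beside the counts of these lists, 23.6% of all genes tested were higher in SMC-gated cells and 26.9% lower.

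For mgR against WT in SMC-gated cells 1 of 16 modification genes, 3 of 11 cleavage and cross-linking genes and 2 of 8 receptors were past the fold as higher and 1 cleavage gene as lower, beside 8.03% and 8.06% of all genes. P3h2, a prolyl 3-hydroxylase that acts on type IV chains, was at 18.6 and 39.1 CPM in WT and mgR (2.11, 1.95 to 2.28), and in fibroblast-gated cells at 31.4 and 14.3 CPM (0.45, 0.40 to 0.52), on opposite sides of 1 in the 2 gates as Col4a3 and Col4a4 were. Loxl2, a cross-linking oxidase of basement membranes, had a ratio of 1.96 (1.84 to 2.08), Pcolce of 3.43 (3.15 to 3.73) and Pcolce2 of 0.34 (0.32 to 0.35) in SMC-gated cells. Itga11, the integrin chain that binds type I collagen, went from 0.175 to 2.94 CPM in SMC-gated cells. In fibroblast-gated cells 1 of 18 modification genes was higher and 2 lower, 3 of 13 cleavage and cross-linking genes higher and none lower, and 2 of 9 receptors higher and 1 lower, beside 8.14% and 7.81% of all genes. Lox was at 239 and 638 CPM there (2.68, 2.58 to 2.78).

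Between mgR and mgR-LOS no modification or receptor gene was higher in either gate. In SMC-gated cells 2 of 17 modification genes, 6 of 12 cleavage and cross-linking genes and 1 of 8 receptors were lower in mgR-LOS, and 1 cleavage gene, Adamts3, was higher, beside 4.87% of all genes lower and 9.78% higher. Lox was at 0.49 (0.47 to 0.50) of mgR, Loxl2 at 0.55, Loxl1 at 0.67, Sparc, which binds collagen in the matrix, at 0.60, Plod2, a lysyl hydroxylase, at 0.50 and P3h2 at 0.45. In fibroblast-gated cells 2 of 18 modification genes, 2 of 13 cleavage genes and 1 of 9 receptors were lower, beside 5.1% of all genes, among them Lox at 0.38 (0.37 to 0.40), Plod2 at 0.53 and P4ha3 at 0.46.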

How the data were processed

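The authors deposited gene by barcode UMI counts, whole numbers made with Cell Ranger (5.0.1 in the headers of the WT and mgR matrices, 6.0.1 in that of mgR-LOS and in the submitters' processing notes) on GRCm38 (mm10) from a 10x 3' kit. Of these counts, barcodes outside 600 to 5000 genes or above 10% mitochondrial UMIs were dropped. The score of a panel was the mean of log(1 + UMIs per 10000) over its markers (8 per panel, 12 for immune cells), and the limits were chosen after the score histograms had been seen. Within 0.2 of the SMC limit lay 30, 249 and 160 barcodes of WT, mgR and mgR-LOS, and within 0.2 of the fibroblast limit 70, 300 and 247, so that more barcodes near a limit came from mgR. Called doublets (230, 522 and 1295 in WT, mgR and mgR-LOS) were kept in the main values.

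Library totals were 83338726, 123956320 and 121436873 UMIs. CPM carry exact 95% Poisson intervals, and ratios exact conditional binomial intervals. Both cover counting error only. Sums of 15 library and gate pairs were tested with edgeR 4.0.16 (TMM, library as a block, quasi-likelihood test, Benjamini-Hochberg adjustment, threshold 0.05) in R 4.3.3. A first run on simulated data covered only SMC-gated against fibroblast-gated cells, with changes in genes of higher counts. It does not bear on the EC-gated or Schwann-gated calls. The SE of a log2 difference is its absolute value divided by the square root of the F statistic of edgeR's test. It is worked back from that test and is not a separate estimate of spread. DESeq2 1.42.0 was an alternative. Nothing says that the libraries are more than 1 pool of mice each. For shares of barcodes, each barcode was thinned to 1000 UMIs. Marker panels within gates took each barcode to the panel with the most UMIs per 10000, at least 5.

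Named chains were those at 100 CPM or more in a gate of a library, highest in a gate, past the fold in SMC-gated or fibroblast-gated cells, or partners of such chains in a trimer. Others named for their value were chosen after their values were seen. The chains, lists, panels and limits were chosen with earlier results of these data known.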

Additional observations from a re-analysis of the deposited data

How the results depend on the processing

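Of 766 values of single chains under an alternative 692 kept their side of the fold, 74 kept their direction but not the fold and 0 turned, and of 105 summed levels 70 moved beyond their counting interval. Some alternatives changed only the fold limit or the UMI minimum, which leaves a ratio as it is. Values under these could not turn, and under the lower limits a chain could not lose the fold, so the counts overstate stability. No paired analysis was possible because each condition has 1 pooled library, so the block in the tests between gates is the library itself. Without the library block 32, 21 and 21 chains were called in SMC-gated against fibroblast-gated cells, in EC-gated cells and in Schwann-gated cells, against 32, 24 and 21 with it. Leaving out 1 library gave 30 to 34, 19 to 25 and 17 to 21. Scaling changed the split over all genes. In SMC-gated against fibroblast-gated cells 3174 genes were higher and 3620 lower with TMM, 2492 and 4247 with RLE size factors, and 2578 and 4194 with DESeq2. In EC-gated cells the split was 2656 and 3163, 3110 and 2649, and 3292 and 2639, and in Schwann-gated cells 727 and 1343, 830 and 928, and 1780 and 939. Among the chains RLE gave 7 and 25, 2 and 21, and 8 and 12, and DESeq2 6 and 25, 2 and 21, and 10 and 14. The stricter gate gave 8 and 8 chains in Schwann-gated cells in place of 8 and 13. Leaving the pigment barcodes out of the Schwann gate was chosen after seeing the data.

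The counts past the fold depended on the limit. For mgR over WT in SMC-gated cells 11 chains were past 1.5-fold, 19 past 5/4-fold and 6 past 2-fold. In fibroblast-gated cells 14 became 23 at 5/4-fold, and the balance of 6 higher and 8 lower chains turned to 8 and 7 at most 5% mitochondrial UMIs and was 7 and 7 as means over barcodes and 5 and 5 at 2-fold. For mgR-LOS over mgR 14 chains in SMC-gated cells (5 higher and 9 lower) became 6 at 2-fold (3 and 3) and 8 at most 5% mitochondrial UMIs (1 and 7). The latter limit kept 565, 922 and 3053 SMC-gated barcodes of WT, mgR and mgR-LOS, an unequal part of the gate. In fibroblast-gated cells 15 chains became 7 at 2-fold. In EC-gated cells 5 chains became 11 at 5/4-fold, 1 at 2-fold, 8 at most 5% mitochondrial UMIs, 10 with the gate set by the highest score, 2 with at least 200 UMIs and 2 as means over barcodes. The summed level of fibroblast-gated over SMC-gated cells (2.45, 2.38 and 3.54 in WT, mgR and mgR-LOS) was 2.32, 2.23 and 3.46 at most 5% mitochondrial UMIs, 2.40, 2.30 and 3.48 with 200 to 7500 genes, 2.40, 2.24 and 3.26 by the highest score, 2.69, 2.46 and 3.81 under the stricter gate, 2.46, 2.39 and 3.58 without called doublets, 2.44, 2.40 and 3.51 without mitochondrial, ribosomal and globin genes in the totals, and 2.68, 2.33 and 3.61 as means over barcodes. The cause of these shifts was not tested. Depth limits the chains under 50 UMIs and all of the Schwann gate.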
